A study of Mus musculus with 16 samples.

Results

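The cells described here are granulocyte progenitors of mouse bone marrow, chosen cell by cell from their transcript counts. Of 121405 cell barcodes in 8 libraries, 94917 had 750 or more genes detected and a mitochondrial share of transcripts no higher than 10%. A transcript was counted as a unique molecular identifier (UMI). Of these cells, 20873 held at least 20 UMIs of *Elane*, and 20634 of them also held at least 1 UMI of *Ms4a3*. Cells with any UMI of *Ly86* (3198 cells) or *Csf1r* (1577 cells), which mark the monocyte side, were then left out. So were 535 cells with 30 or more UMIs of *Camp*, *Ngp* and *Ltf* together, which mark later neutrophil stages. This left 15324 granulocyte progenitors, 16.1% of the 94917 cells. The members were chosen by these 7 genes, so the levels of those genes are given as a description and were not tested between groups.

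The study asked how 5 weeks of exposure to interleukin 1β (IL1β) changes blood progenitors with and without the DNA demethylase *Tet2*. WT mice were *Tet2*fl/fl without Cre, and *Tet2*-KO mice carried *Vav-Cre* on *Tet2*fl/fl, which deletes the gene in all blood cells. An effect of the transgene cannot be told apart from that of *Tet2* loss. All mice were C57BL/6 and 6 to 12 weeks old, and were injected into the peritoneum with vehicle or with IL1β at a daily 500 ng for each mouse. Crossing genotype with treatment gave 4 groups of 4 mice. Marrow depleted of mature lineages was marked with 1 hashtag antibody per mouse, and each library pooled 2 mice of 1 group (mice 1 and 2, or mice 3 and 4). Of the granulocyte progenitors, 12038 (78.6%) were assigned to 1 mouse, 934 (6.1%) carried both hashtags and 2352 (15.3%) carried neither. Only assigned cells entered values per mouse.

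Each mouse contributed 154 to 1784 granulocyte progenitors, and the UMIs of these cells summed to between 906419 and 15598444 per mouse. The smallest sample was WT vehicle mouse 2, with 154 cells. The median mitochondrial share of UMIs in these cells was 3.24% to 4.60% in the 8 mice with vehicle and 4.58% to 5.75% in the 8 mice with IL1β, and its part in the results below was not tested. Of the 15324 members, 358 (2.34%) had a barcode that also occurred in another library. The split of a pool into its mice depended on the rule that read the hashtags. Under a rule that asked for a 3-fold excess of 1 hashtag over the other, WT vehicle mouse 1 kept 8 cells in place of 417, *Tet2*-KO vehicle mouse 1 kept 6 in place of 785 and *Tet2*-KO IL1β mouse 2 kept 35 in place of 764, while *Tet2*-KO vehicle mouse 2 went from 384 to 1126, WT IL1β mouse 1 from 1784 to 523 and WT IL1β mouse 4 from 335 to 941. Values of single mice in these 5 pools are therefore uncertain. The pool of a cell, and with it the group, does not depend on the hashtags. Under that rule, with WT vehicle mouse 1 and *Tet2*-KO vehicle mouse 1 left out for having under 10 cells, IL1β changed 1915 genes in WT and 3473 in *Tet2*-KO mice, and genotype 4 with vehicle and 12 with IL1β, to be read against the counts below. Mice of 1 pool resembled each other in most pools: their deviations from the group mean correlated with a median r of 0.41 across genes in 8 pools, from -0.425 to 0.745, and 7 of the 8 were over 0.1. Mice of 1 pool are therefore not fully independent. Where groups are compared, each list's counts over mice are given with those of a fit that took the pool as the replicate. Differences between sets of cells were not fitted over pools.

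Granulocyte progenitors are the stage at which myeloid precursors commit to the neutrophil line. At this stage the cell makes the serine proteases and the peroxidase of the primary (azurophil) granules, which are packed early and used later to kill microbes, while the proteins of the secondary and tertiary granules follow in later stages. Inflammatory cytokines such as IL1β act through the receptor IL1R1, the adaptor MyD88 and the kinases of the IRAK family to activate NF-κB, and are known to drive the marrow toward myeloid output.

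The chosen cells matched their label. *Prtn3* (proteinase 3) and *Ctsg* (cathepsin G), which the choice did not read, had UMIs in 100% and 99.9% of members. Over the assigned members pooled, *Prtn3* stood at 8082 raw CPM (UMI counts scaled to the total alone, without the TMM factors used for CPM below) against 1648 in the assigned cells that were not members, and *Ctsg* at 3433 against 770. Beyond *Elane* and *Ms4a3*, the genes with the highest ratio to the rest included *B4galt6* (8.10 times), the transcription factor gene *Gfi1* (6.44 times), the protease gene *Prss57* (6.19 times) and *Nkg7* (5.18 times). *Cebpe*, which drives the later granule program, was at 155 raw CPM and 4.31 times the rest. These ratios follow from how the cells were chosen and carry no test. The summed level of the 4 markers *Elane*, *Ms4a3*, *Prtn3* and *Ctsg* ranged from 14770 to 25870 raw CPM over the 16 mice. Pooled, this sum was 20340 raw CPM in members and 3707 in the assigned cells that were not members. It was 9278 in monocyte-primed cells and 3196 in immature myeloid cells, both defined below. By this sum, which includes *Elane* and *Ms4a3*, members stood less far above monocyte-primed cells than above the rest.

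The upstream sequences of the 3 protease genes are shown because the proteases mark this stage, and the transcripts of *Prtn3* and *Ctsg*, which the choice of cells did not read, fell with IL1β. *Elane* and *Prtn3* are neighbours on chromosome 10. Each window holds 250 bases before and 50 bases after the transcription start of the RefSeq annotation on GRCm38.p6, written 5′ to 3′ along the gene. Capitals mark the letters GAGGAA, a core bound by PU.1 (*Spi1*), a myeloid transcription factor.
Elane, chr10:79886062-79886361, plus strand: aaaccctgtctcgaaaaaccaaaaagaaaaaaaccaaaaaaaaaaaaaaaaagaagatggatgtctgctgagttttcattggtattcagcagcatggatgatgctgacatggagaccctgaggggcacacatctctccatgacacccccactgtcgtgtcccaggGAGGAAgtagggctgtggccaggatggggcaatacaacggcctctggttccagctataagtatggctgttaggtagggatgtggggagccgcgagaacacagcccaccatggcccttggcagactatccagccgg
Prtn3, chr10:79879417-79879716, plus strand: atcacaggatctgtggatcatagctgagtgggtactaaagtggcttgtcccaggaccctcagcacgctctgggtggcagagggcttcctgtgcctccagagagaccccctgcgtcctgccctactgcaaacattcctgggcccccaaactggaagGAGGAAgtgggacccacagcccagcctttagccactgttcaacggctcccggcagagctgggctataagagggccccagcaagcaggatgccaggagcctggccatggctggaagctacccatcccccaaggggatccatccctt
Ctsg, chr14:56102525-56102824, minus strand: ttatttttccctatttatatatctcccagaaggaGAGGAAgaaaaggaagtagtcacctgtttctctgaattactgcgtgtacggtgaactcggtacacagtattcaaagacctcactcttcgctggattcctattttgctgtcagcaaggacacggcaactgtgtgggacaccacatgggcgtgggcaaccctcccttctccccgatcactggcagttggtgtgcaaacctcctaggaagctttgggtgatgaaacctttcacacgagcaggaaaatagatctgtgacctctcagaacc
The core starts 85 bases before the *Elane* start, 95 bases before that of *Prtn3* and 216 bases before that of *Ctsg*. Searched on both strands, it was present in 4 of the 4 marker genes, *Ms4a3* included, and in 28.3% of all 32851 promoter windows. The C/EBP letters TTNNGCAA were present in 1 of the 4, *Ms4a3*, and in 10.8% of all windows. These matches are descriptions of the letters and not evidence of binding.

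The members varied in maturity. A member had a median of 8047 UMIs, 2548 genes, 56 UMIs of *Elane*, 11 of *Ms4a3* and 64 of *Mpo* (myeloperoxidase). *Cd34*, a marker of earlier progenitors, had a UMI in 34.8% of members, and the monocyte and dendritic cell factor gene *Irf8* in 20.5%. *Camp*, *Ngp* and *Ltf* were absent from 73.4% of members. Just inside the *Elane* limit, the 1011 members with 20 to 24 UMIs had a median of 5632 UMIs, with *Cd34* in 49.7% and *Irf8* in 32.6%. Just outside it, 926 cells with 15 to 19 UMIs of *Elane* had a median of 5484 UMIs, with *Cd34* in 55.6% and *Irf8* in 35.1%. Both sets were shallower and more often *Cd34*+ than the members as a whole. The 1144 cells that failed only by a single UMI of *Ly86* differed more, with *Irf8* in 80.6%. At the late end, 96 cells failed only by holding 30 to 49 UMIs of *Camp*, *Ngp* and *Ltf*.

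Granulocyte progenitors took a higher mean share of cells with IL1β in both genotypes, but no comparison passed the test after adjustment. In WT mice with vehicle they made up 10.0%, 22.1%, 14.8% and 11.8% of the assigned cells. With IL1β the WT mice had 27.7%, 22.7%, 20.3% and 23.6%. The WT groups overlapped only through vehicle mouse 2, the mouse with the fewest cells. Under the rule of a 3-fold hashtag excess its share was 7.10%, in 308 of 4340 cells. Among *Tet2*-KO mice the shares were 18.6%, 30.5%, 15.7% and 10.8% with vehicle and 42.4%, 17.0%, 32.8% and 32.0% with IL1β. Here the groups overlapped only through IL1β mouse 2, which lay below vehicle mice 1 and 2. The 95% Wilson intervals of single mice were 1.82 to 6.14 percentage points wide and cover counting error only. The mean share was 23.6% ± 3.09 (SD, n = 4) with IL1β against 14.7% ± 5.32 (SD, n = 4) with vehicle in WT mice (exact two-sided permutation test, p = 0.0571, adjusted over 4 comparisons 0.229). In the knockout it was 31.1% ± 10.5 against 18.9% ± 8.37 (exact permutation p = 0.114, adjusted 0.229). The difference between *Tet2*-KO and WT mice was within their spread, with vehicle (exact permutation p = 0.429) or with IL1β (exact permutation p = 0.257, adjusted 0.343). With 4 against 4 mice the smallest p is 0.0286, and 1 comparison alone at that p could not pass over 4. With *Elane* at 40 or more UMIs the difference with IL1β in WT mice was 3.46 percentage points in place of 8.93, and the difference between genotypes with IL1β was 12.0 in place of 7.5. With cells thinned to 8000 UMIs before they were chosen, the IL1β difference was 12.9 in WT and 20.4 in *Tet2*-KO mice. The genotype difference was then 8.16 with vehicle and 15.7 with IL1β. Neither hashtag was carried by 15.3% of members but by 34.9% of all cells, from 14.3% to 49.8% by pool. Shares among assigned cells therefore differ from those among all cells. Among all cells of a pool, hashtag or not, the shares were 8.65% and 8.91% in WT with vehicle, 19.7% and 14.8% in WT with IL1β, 16.7% and 10.4% in *Tet2*-KO with vehicle, and 22.5% and 28.4% in *Tet2*-KO with IL1β. The pools of each genotype did not overlap between treatments. A share cannot tell more granulocyte progenitors from fewer other cells.

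**Figure D1:**
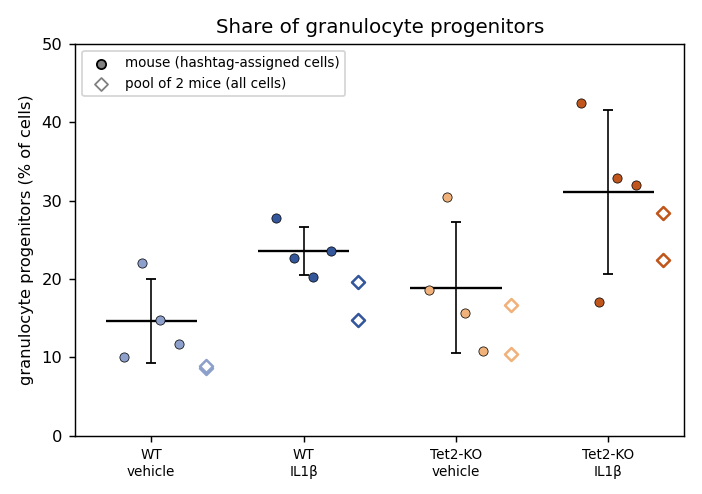
Granulocyte progenitors as a percentage of cells, by group. Circles are the 4 mice of each group (hashtag-assigned cells), lines and bars their mean ± SD, and open diamonds the 2 pools of each group with all cells. The WT IL1β mice sit between 20.3% and 27.7%, above all WT vehicle mice but mouse 2 at 22.1%.

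Stage markers within the granulocyte progenitors were compared after each cell had been thinned to 8000 UMIs, which left out 5840 of the 12038 assigned members. The thinning left WT vehicle mouse 2 with 22 cells. None of the 20 comparisons passed after adjustment (smallest adjusted p = 0.114, exact permutation tests). The smallest p that 4 against 4 mice can reach is 0.0286. The 5 comparisons at that p could not pass over 20 tests, whatever the size of their difference. Among those at the smallest reachable p, *Kit*, the stem cell factor receptor gene, had a UMI in 58.1% ± 6.76 of cells in *Tet2*-KO mice with IL1β and 45.1% ± 2.39 with vehicle. *Fcnb*, a ficolin gene of maturing granulocytes, was in 29.7% ± 6.39 of cells in *Tet2*-KO mice with IL1β and 15.6% ± 2.90 in WT mice with IL1β. *Irf8* was in 30.7% ± 3.78 of cells in *Tet2*-KO mice with vehicle, against 17.7% ± 5.86 in WT mice with vehicle and 19.7% ± 3.87 in *Tet2*-KO mice with IL1β. *Mki67*, a marker of cycling cells, was in 74.4% ± 3.15 of cells in *Tet2*-KO mice with IL1β and 88.2% ± 4.00 in WT mice with IL1β. The 4 mice of each group did not overlap between the groups in these 5 comparisons. With 4000 UMIs per cell or without thinning, the groups again did not overlap for *Kit* and *Irf8*, but they did for *Fcnb* and *Mki67*. The *Mki67* difference was -13.8 percentage points at 8000 UMIs, -10.1 at 4000 UMIs and -3.76 without thinning. As a background, *Fcnb* had a UMI in 0.672% and *Irf8* in 4.51% of 8034 erythroid cells (at least 2 UMIs of *Klf1*, an erythroid transcription factor gene, and no *Elane*) thinned to the same depth. Without thinning, the background was 0.793% and 5.35% in 11097 erythroid cells with a median of 10214 UMIs, against 8047 in the members. *Kit* and *Mki67* had a UMI in 36.1% and 97.9% of the thinned erythroid cells, which therefore give no background for these 2 genes.

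The 3′ counts of *Tet2* do not check the knockout, since they can come from a part of the transcript outside the deleted exon. *Tet2* was at 32.7, 38.6, 40.9 and 41.3 CPM (UMI counts scaled to the TMM-adjusted library total) in the WT mice with vehicle and at 46, 43.4, 40.8 and 36.3 CPM in the *Tet2*-KO mice with vehicle. CPM here and below are a mouse's UMI counts relative to its total over granulocyte progenitors, scaled with edgeR's TMM factors, and values after ± are SD over 4 mice for CPM and SE for log2 fold changes. With IL1β, *Tet2* was at 47.7, 52.6, 52.3 and 47.9 CPM in WT and 75.9, 67.9, 62.5 and 58.5 CPM in *Tet2*-KO mice. It rose in WT (log2 fold change 0.38 ± 0.11, adjusted p = 0.013) and in *Tet2*-KO mice (0.66 ± 0.096, adjusted p = 4.88e-05). Of 12 genes of DNA methylation and demethylation, *Tet2* and *Idh1* (isocitrate dehydrogenase 1) rose in both genotypes and *Mbd2* fell in *Tet2*-KO mice. Of all genes tested, 12.1% rose in WT mice, and 18.5% rose and 19.7% fell in *Tet2*-KO mice. The counts of this list were near those shares or below them. The 2 risers became 1 without WT vehicle mouse 1 in WT and 1 without *Tet2*-KO IL1β mouse 1 in *Tet2*-KO, and the 1 faller became 0 without *Tet2*-KO vehicle mouse 3 or *Tet2*-KO IL1β mouse 2. With the pool as the replicate, 1 rose in WT and 2 in *Tet2*-KO, and 0 fell. *Idh1* was at 48.5 ± 5.53 CPM with vehicle and 70.9 ± 5.73 CPM with IL1β in WT mice.

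IL1β changed the transcripts of granulocyte progenitors widely in both genotypes. Of 10571 genes tested across mice, 2844 (26.9%) passed an adjusted p of 0.05 in WT mice, 1281 higher and 1563 lower. In *Tet2*-KO mice 4031 (38.1%) passed, 1953 higher and 2078 lower. These shares are the background against which the gene groups below should be read, namely 12.1% higher and 14.8% lower in WT and 18.5% higher and 19.7% lower in *Tet2*-KO. Genes called in both genotypes in the same direction numbered 2217, which is 78.0% of the WT calls and 55.0% of the *Tet2*-KO calls, and none was called in opposite directions. The interaction of genotype and treatment called 0 genes with edgeR at 590 genes with an unadjusted p under 0.05, and 5 with DESeq2. With the pool as the replicate, 11997 genes were tested. In WT mice 398 (3.32%) were called, 110 higher and 288 lower. In *Tet2*-KO mice 1720 (14.3%) were called, 718 higher and 1002 lower. These are the background for the counts over pools. Of these calls, 395 and 1679 were also called over mice in the same direction. Every gene called over mice had the same sign in the pools. The pools hold the same cells and more, so this is no independent evidence. Groups of mice did not overlap for 26.7% of all genes tested in WT and 36.7% in *Tet2*-KO.

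Genes of the IL1 and NF-κB list rose more often than they fell. Of 27 tested genes of IL1 signalling and NF-κB, 14 rose and 2 fell in WT mice, and 17 rose and 2 fell in *Tet2*-KO mice. The median log2 fold change of the list was 0.42 in WT and 0.45 in *Tet2*-KO, against 0.039 and 0.032 over all genes. In the fit over pools, where 29 were tested, 6 rose and 1 fell in WT, and 7 rose and 2 fell in *Tet2*-KO. The 2 that fell in WT over mice became 1 without WT vehicle mouse 1 or 3. *Tnfaip3* encodes A20, a ubiquitin-editing enzyme that shuts the pathway off. It was at 1.8, 4.68, 2.13 and 2.11 CPM in WT mice with vehicle and at 23.9, 52.6, 26.9 and 29.8 CPM with IL1β, with no overlap (3.85 ± 0.40, adjusted p = 5.43e-05). Among *Tet2*-KO mice it went from 6.04, 5.46, 2.69 and 3.8 CPM to 31.6, 23.2, 30.1 and 15 CPM, again with every mouse higher (2.43 ± 0.30, adjusted p = 1.34e-05).

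*Nfkbia* encodes IκBα, the inhibitor that holds NF-κB in the cytoplasm. It was at 45.3, 39.8, 28.6 and 25.1 CPM in WT mice with vehicle and at 72.1, 253, 128 and 152 CPM with IL1β. The lowest IL1β mouse exceeded the highest vehicle mouse (2.17 ± 0.30, adjusted p = 0.000137). In the knockout it was at 34.6, 26.6, 39.6 and 31 CPM with vehicle and 128, 91.2, 132 and 75.8 CPM with IL1β (1.68 ± 0.28, adjusted p = 0.000152). *Nfkbiz*, an inducible nuclear member of the same family, rose from 10.4, 3.51, 2.84 and 4.22 to 31.7, 53.2, 20.7 and 24.3 CPM in WT mice (2.63 ± 0.50, adjusted p = 0.000936). In *Tet2*-KO mice it was at 11.7, 13.6, 2.86 and 3.22 CPM with vehicle and 27.8, 26.3, 20.2 and 10.3 CPM with IL1β, where the groups overlapped (1.36 ± 0.41, adjusted p = 0.013). *Zc3h12a*, the RNase Regnase-1 that degrades inflammatory transcripts, rose by a log2 fold change of 1.02 ± 0.28 in WT and 0.99 ± 0.25 in *Tet2*-KO mice. The calls of *Tnfaip3* and *Nfkbia* held in both genotypes, and that of *Nfkbiz* in WT mice, whichever mouse was left out.

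The *Nfkbia* promoter is shown because its letters include a κB motif close to the start. The window is that of RefSeq on GRCm38.p6, written along the gene, and capitals mark the match to the κB motif, spelled GGGA, any 2 bases and TTCC, here on the strand opposite to the gene.
Nfkbia, chr12:55492598-55492897, minus strand: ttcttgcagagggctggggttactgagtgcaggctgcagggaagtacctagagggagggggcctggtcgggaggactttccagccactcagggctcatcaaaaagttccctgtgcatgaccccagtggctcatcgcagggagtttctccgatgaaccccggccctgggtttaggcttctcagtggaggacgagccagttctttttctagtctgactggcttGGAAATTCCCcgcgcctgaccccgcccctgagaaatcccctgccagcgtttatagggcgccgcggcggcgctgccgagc
The match starts 29 bases before the transcription start. The window was chosen for this match, which is a description of the letters and not evidence of binding. Searched on both strands, these letters were found in *Nfkbia*, *Nfkb2* and *Map3k7*, 3 of 27 genes of the list with a window (4 of their 40 windows, 10%), and in 1.47% of all windows. *Nfkb2* was low, at 3.34 ± 1.05 CPM with vehicle and 5.55 ± 1.13 CPM with IL1β in WT mice, and did not pass the test (0.63 ± 0.25, adjusted p = 0.0733).

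The subunits and upstream members of the pathway moved less. *Nfkb1*, which encodes p105 and p50, was at 74.5, 59.7, 73.8 and 77.7 CPM in WT mice with vehicle and 102, 108, 127 and 123 CPM with IL1β (0.66 ± 0.11, adjusted p = 0.000315). The same gene went from 78.9, 84.6, 71.4 and 63.5 to 129, 123, 106 and 107 CPM in *Tet2*-KO mice (0.64 ± 0.10, adjusted p = 0.000107). Neither pair of groups overlapped. *Rel* (log2 fold change 0.51 in WT and 0.65 in *Tet2*-KO), *Rela* (0.39 and 0.34) and the inhibitory kinase gene *Irak3* (0.40 and 0.45) rose in both genotypes. The receptor gene *Il1r1* was near the limit of detection, at 0.36, 0, 1.42 and 2.35 CPM in WT mice with vehicle, and its comparisons did not pass the test. *Il1rap*, the accessory chain of the receptor, rose in *Tet2*-KO mice (0.54 ± 0.14, adjusted p = 0.00513) and had 0.42 ± 0.16 in WT mice (adjusted p = 0.0585). *Myd88* stood at 18.8 ± 3.53 CPM with vehicle and 19.7 ± 2.45 CPM with IL1β in WT mice and did not pass the test. The 2 genes that fell were *Nfkbib* and *Sod2*. *Sod2*, the mitochondrial superoxide dismutase, was at 140.3, 116, 109 and 110.1 CPM in WT mice with vehicle and 80.8, 89.3, 64 and 70.4 CPM with IL1β (-0.64 ± 0.12, adjusted p = 0.000968).

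**Figure D2:**
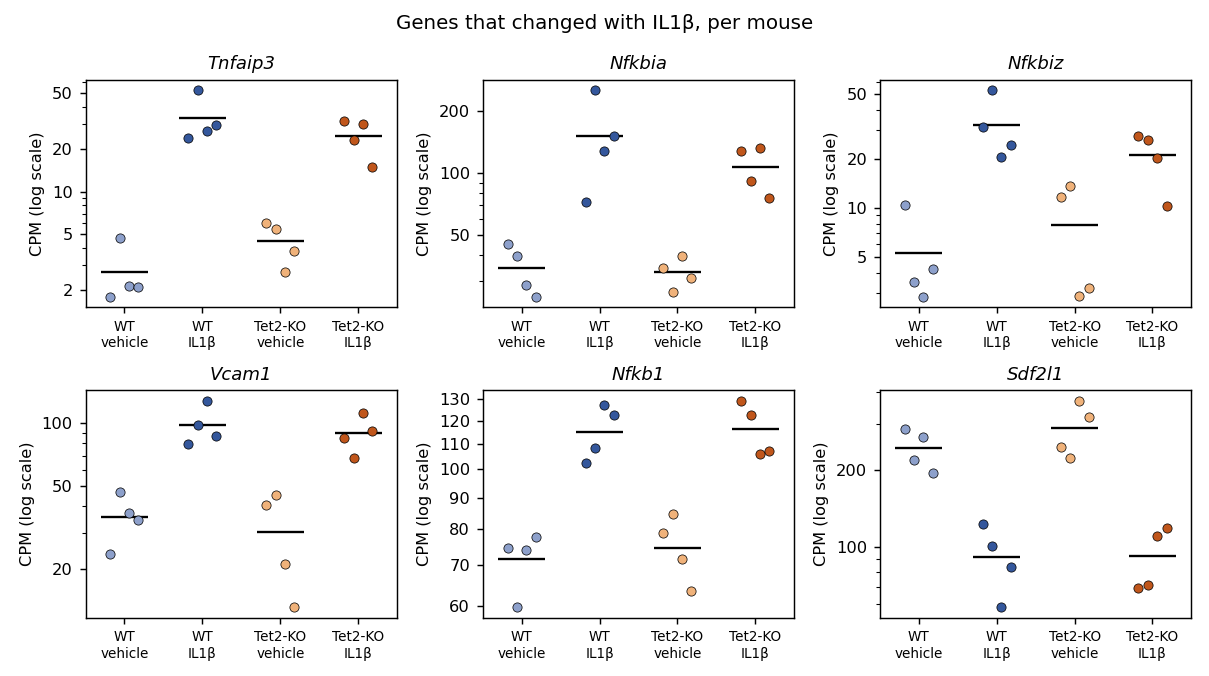
CPM per mouse (log scale) of *Tnfaip3*, *Nfkbia*, *Nfkbiz*, *Vcam1*, *Nfkb1* and *Sdf2l1* in granulocyte progenitors, by group, with lines at the group mean of the 4 mice. *Tnfaip3* lies at or below 6.04 CPM in all vehicle mice and at or above 14.98 CPM in all IL1β mice, and *Sdf2l1* lies at or above 195 CPM in all vehicle mice and at or below 122 CPM in all IL1β mice.

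Transcripts of several primary granule proteins fell with IL1β. In WT mice 6 of 16 tested genes of the list fell (*Prtn3*, *Ctsg*, *Mpo*, *Nkg7*, *Cd63*, *Cst7*) and 0 rose. Among *Tet2*-KO mice 5 fell (*Prtn3*, *Ctsg*, *Nkg7*, *Ctsc*, *Lyz2*) and 2 rose (*Srgn*, *Ctsd*). The count of 2 that rose was 0 without *Tet2*-KO vehicle mouse 2 or 4 or *Tet2*-KO IL1β mouse 3 or 4 and 1 without WT vehicle mouse 4, *Tet2*-KO vehicle mouse 1 or 3 or *Tet2*-KO IL1β mouse 1. Over pools, 1 fell in WT and 2 fell in *Tet2*-KO, and *Prtn3* and *Ctsg* were not among the calls. *Elane* itself, which the choice of cells read, was at 8758 ± 209 CPM with vehicle and 5829 ± 158 CPM with IL1β in WT mice, and at 9074 ± 1196 and 7154 ± 684 CPM in *Tet2*-KO mice. Cells near the *Elane* limit also differed in stage, as described above, and the part of the limit in these changes was not tested.

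*Prtn3* was at 10099, 9199, 8332 and 7870.3 CPM in WT mice with vehicle and at 6964, 6653, 5086 and 4467 CPM with IL1β, with no overlap (-0.62 ± 0.15, adjusted p = 0.00616). In the knockout it was at 10609, 10525, 10778 and 9677 CPM with vehicle and 6622, 5173, 9459.6 and 8927 CPM with IL1β, where IL1β mice 3 and 4 stood close to the vehicle mice (-0.46 ± 0.15, adjusted p = 0.0224). *Ctsg* fell more, from 4889.6, 4579, 3934 and 4304 to 3056, 2771, 1832 and 1716 CPM in WT mice (-0.92 ± 0.17, adjusted p = 0.000962). The corresponding values in *Tet2*-KO mice were 3961, 4137, 5162 and 5101 CPM with vehicle and 2522, 2273, 3721 and 3659.7 CPM with IL1β (-0.59 ± 0.17, adjusted p = 0.0108). Both proteases thus kept the order of the treatments within each genotype, without overlap. Of the 2 tested marker genes, both fell in *Tet2*-KO mice, and the count was 1 without *Tet2*-KO vehicle mouse 3 or *Tet2*-KO IL1β mouse 1 or 2.

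*Mpo* showed a smaller fall that passed in WT mice only, from 7487, 8312, 8382 and 8074 CPM to 6808, 7218, 6574 and 6633 CPM (-0.24 ± 0.062, adjusted p = 0.00653). In *Tet2*-KO mice it was at 8288, 8117, 8408 and 8062 CPM with vehicle and 8048, 7607, 8376 and 8430.2 CPM with IL1β (-0.018 ± 0.062, adjusted p = 0.849). The difference between genotypes in the IL1β effect did not pass the test (0.23 ± 0.087, adjusted p = 0.802). *Cd63*, a membrane protein of primary granules, followed the same pattern, with -0.64 ± 0.097 in WT mice (adjusted p = 0.000205), -0.15 ± 0.096 in *Tet2*-KO mice (adjusted p = 0.232) and an interaction of 0.49 ± 0.14 (adjusted p = 0.683). *Srgn*, the proteoglycan that packs granule proteases, stood at 2790.4 ± 161 CPM with vehicle and 3532 ± 779 CPM with IL1β in *Tet2*-KO mice.

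More genes of later granules rose than fell. Of 21 tested genes of secondary and tertiary granules, 5 rose and 0 fell in WT mice (*Lcn2*, *Cybb*, *Mmp8*, *Cd177*, *Itgam*), and 7 rose and 1 fell in *Tet2*-KO mice. The WT count was 2 without WT vehicle mouse 2, 3 or 4 and 3 without WT vehicle mouse 1, WT IL1β mouse 3 or 4, *Tet2*-KO vehicle mouse 3 or *Tet2*-KO IL1β mouse 1 or 3. The *Tet2*-KO count was 2 without *Tet2*-KO vehicle mouse 3, 4 without *Tet2*-KO vehicle mouse 4 or *Tet2*-KO IL1β mouse 4 and 11 without *Tet2*-KO IL1β mouse 2. By pool, where 22 were tested, 1 rose in WT and 0 in *Tet2*-KO mice. *Cybb*, the catalytic subunit of the phagocyte oxidase, was at 21.6, 21.1, 20.6 and 19 CPM in WT mice with vehicle and 54.8, 82.5, 77.7 and 36.4 CPM with IL1β (1.64 ± 0.31, adjusted p = 0.000926). Among *Tet2*-KO mice it was at 83.8, 64.8, 39.2 and 28.7 CPM with vehicle and 89.6, 70.1, 132 and 104 CPM with IL1β, with overlap (0.85 ± 0.25, adjusted p = 0.012). *Lcn2*, the iron-binding lipocalin, was at 35.6, 28.1, 16.8 and 22.5 CPM in WT mice with vehicle and 91, 106, 58.8 and 28.4 CPM with IL1β, where IL1β mouse 4 lay within the vehicle range (1.56 ± 0.37, adjusted p = 0.00451). *Mmp8*, the neutrophil collagenase, was low, at 3.6, 1.17, 1.18 and 0.469 CPM and 5.13, 6.19, 3.33 and 13.2 CPM in WT mice (2.01 ± 0.71, adjusted p = 0.0397). Summed markers of mature neutrophils include *Mmp8*. In WT mice they were at 71.9 to 136 raw CPM with vehicle and 127 to 179 with IL1β. In *Tet2*-KO mice they were at 51.3 to 185 with vehicle and 106 to 189 with IL1β. Their part in these changes was not tested.

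**Figure D3:**
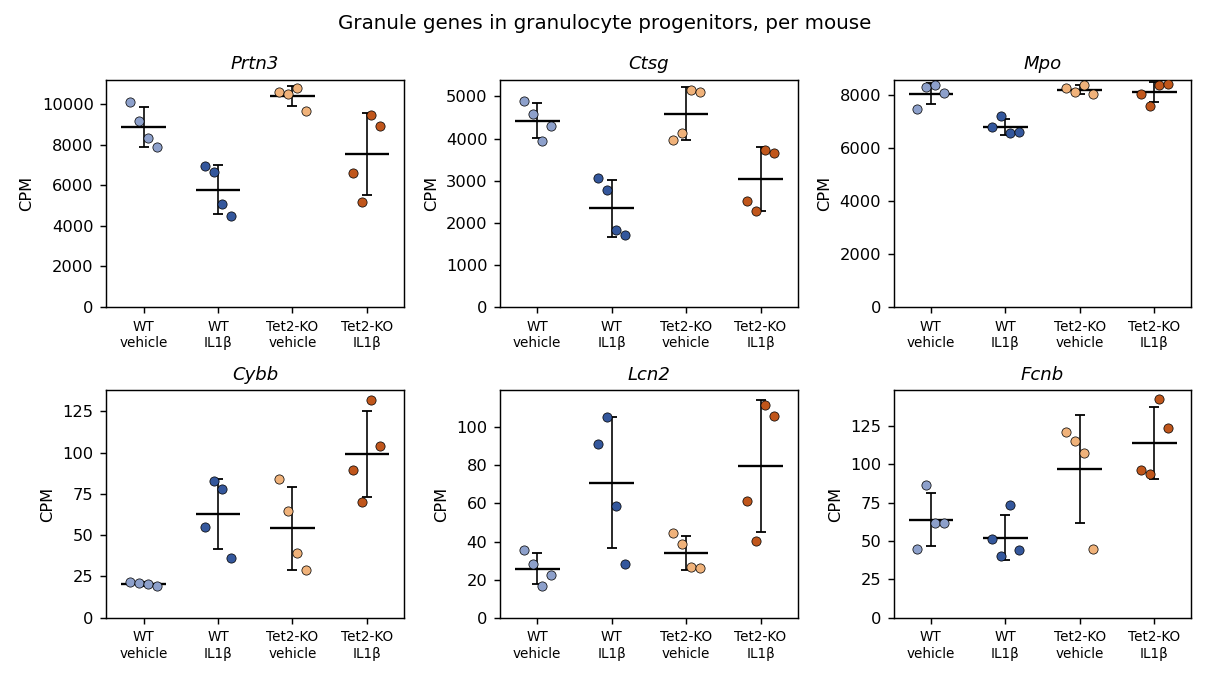
CPM per mouse of 3 primary granule genes (*Prtn3*, *Ctsg*, *Mpo*) and 3 genes of later granules (*Cybb*, *Lcn2*, *Fcnb*) in granulocyte progenitors, by group. Points are mice, and lines and bars are mean ± SD of 4 mice. *Ctsg* falls with IL1β in both genotypes without overlap, while *Fcnb* separates the genotypes with IL1β.

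Transcription factors of the granulocyte line moved in both directions. Of 19 tested, 7 rose and 2 fell in WT mice, and 6 rose and 1 fell in *Tet2*-KO mice. The 7 became 4 without WT vehicle mouse 3, and the 2 became 1 without WT vehicle mouse 1 or 2 or WT IL1β mouse 4. At pool level, where 20 were tested, 0 rose in WT and 5 rose in *Tet2*-KO, and 0 fell in either. *Spi1*, which encodes PU.1, fell in both genotypes, from 156, 160.3, 164 and 157 to 126, 119, 113 and 105 CPM in WT mice (-0.45 ± 0.083, adjusted p = 0.000767). In the knockout it was at 174, 167, 194 and 172 CPM with vehicle and 136, 128, 153 and 152 CPM with IL1β (-0.31 ± 0.08, adjusted p = 0.0046). No mouse overlapped in either genotype. *Cebpe* fell in WT mice, from 208, 233, 186 and 163 to 148, 154, 137 and 102 CPM (-0.52 ± 0.16, adjusted p = 0.0184), and had -0.13 ± 0.15 in *Tet2*-KO mice (adjusted p = 0.546).

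*Myb*, a factor of proliferating progenitors, rose in both genotypes. It was at 467, 476, 490.1 and 508 CPM in WT mice with vehicle and 592, 623, 655 and 571 CPM with IL1β (0.33 ± 0.083, adjusted p = 0.00645), and the *Tet2*-KO effect was 0.54 ± 0.083 (adjusted p = 7.33e-05). *Stat3*, which carries the signal of the G-CSF receptor, rose by 0.50 ± 0.11 and 0.66 ± 0.098. *Gfi1*, a repressor needed for neutrophil commitment, rose in *Tet2*-KO mice from 84, 90.8, 76.5 and 56.4 to 127, 92.9, 116 and 96.5 CPM (0.48 ± 0.12, adjusted p = 0.00321) and had 0.27 ± 0.12 in WT mice (adjusted p = 0.106). *Cebpa* and the others in the list that did not pass are counted above. Of 33 tested cytokine receptors and JAK-STAT members, 7 rose and 0 fell in WT mice and 8 rose and 1 fell in *Tet2*-KO mice, among them *Jak2*, *Stat5b*, *Il3ra* and *Tnfrsf1b* in both. The 1 that fell was *Ifnar2*, and that count was 0 without *Tet2*-KO vehicle mouse 3 or 4 or *Tet2*-KO IL1β mouse 3 or 4. Over pools, where 35 were tested, 1 rose in WT and 6 in *Tet2*-KO, and 0 fell.

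Genes of endoplasmic reticulum chaperones were among those that fell with IL1β. Of 23 tested genes of protein folding and entry into the secretory path, 11 fell and 1 rose in WT mice, and 14 fell and 0 rose in *Tet2*-KO mice. The median log2 fold change was -0.28 in WT and -0.46 in *Tet2*-KO. In the fit over pools, 4 and 10 fell and 0 rose. Leaving out 1 mouse gave 0 to 2 risers in *Tet2*-KO mice. *Sdf2l1*, a partner of the chaperone BiP, was at 287, 219, 268 and 195 CPM in WT mice with vehicle and 122, 101, 58.3 and 83.6 CPM with IL1β (-1.40 ± 0.22, adjusted p = 0.000233). It also fell in *Tet2*-KO mice, from 245, 223, 370.4 and 320.5 to 69.3, 71.3, 109.9 and 118 CPM (-1.64 ± 0.21, adjusted p = 1.79e-05). *Creld2* was at 101, 83.9, 123 and 106 CPM in *Tet2*-KO mice with vehicle and 31.6, 30.6, 42.4 and 42.8 CPM with IL1β (-1.48 ± 0.15, adjusted p = 3.47e-06).

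*Hspa5*, which encodes BiP, was at 1256, 1079.7, 1526 and 1101 CPM in WT mice with vehicle and 1014, 931, 818 and 1026 CPM with IL1β (-0.39 ± 0.11, adjusted p = 0.0104). In *Tet2*-KO mice it was at 1499, 1276, 1630.3 and 1426 CPM with vehicle and 808, 930.4, 861 and 902 CPM with IL1β (-0.74 ± 0.11, adjusted p = 4.2e-05). Neither pair of groups overlapped. The 1 gene of the list that rose was *Xbp1*, a transcription factor of the unfolded protein response, in WT mice from 135, 94.8, 143 and 131 to 181, 178, 167 and 177 CPM (0.45 ± 0.11, adjusted p = 0.00674). Among *Tet2*-KO mice *Xbp1* had 0.18 ± 0.11 (adjusted p = 0.199).

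The promoters of 3 of these genes are shown because members of the list share a long motif. Capitals mark matches to the endoplasmic reticulum stress element, spelled CCAAT, any 9 bases and CCACG and searched on both strands, in RefSeq windows of GRCm38.p6 written along each gene.
Hspa5, chr2:34771840-34772139, plus strand: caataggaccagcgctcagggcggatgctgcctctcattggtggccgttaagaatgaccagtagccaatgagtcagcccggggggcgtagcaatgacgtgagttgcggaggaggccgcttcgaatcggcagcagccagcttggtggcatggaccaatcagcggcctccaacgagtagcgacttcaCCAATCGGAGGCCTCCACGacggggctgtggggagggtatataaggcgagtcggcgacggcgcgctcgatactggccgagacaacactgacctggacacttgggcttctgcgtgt
Hsp90b1, chr10:86705395-86705694, minus strand: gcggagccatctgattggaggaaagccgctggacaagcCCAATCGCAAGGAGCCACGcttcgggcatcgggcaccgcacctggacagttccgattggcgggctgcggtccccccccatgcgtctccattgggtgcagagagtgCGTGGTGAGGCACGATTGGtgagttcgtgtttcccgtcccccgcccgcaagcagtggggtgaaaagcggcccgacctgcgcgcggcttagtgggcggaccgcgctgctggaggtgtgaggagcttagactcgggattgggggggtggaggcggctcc
Creld2, chr15:88819396-88819695, plus strand: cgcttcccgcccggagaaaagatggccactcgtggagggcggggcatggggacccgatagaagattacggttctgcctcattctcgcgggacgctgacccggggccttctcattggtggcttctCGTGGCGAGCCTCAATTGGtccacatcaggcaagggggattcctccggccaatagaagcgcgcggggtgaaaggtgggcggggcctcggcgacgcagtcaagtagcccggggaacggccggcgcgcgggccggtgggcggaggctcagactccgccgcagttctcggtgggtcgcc
The *Hspa5* match starts 65 bases before the transcription start. *Hsp90b1* holds 2 matches, 212 and 107 bases before the start and on opposite strands. The *Creld2* match starts 126 bases before the start, on the opposite strand. Of 19 windows of the list, 7 (36.8%) held the element (*Calr*, *Canx*, *Creld2*, *Dnajc3*, *Hsp90b1*, *Hspa5*, *Pdia6*), against 39 of 32851 windows (0.119%) overall. Of these 7 genes, 6 were called lower in at least 1 genotype, all but *Canx*. The motif is known from these very genes, so the match is a description and says nothing of the factor.

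Ribosome biogenesis genes fell with IL1β in both genotypes. Of 25 tested genes, 18 fell and 0 rose in WT mice, and 21 fell and 0 rose in *Tet2*-KO mice. The median log2 fold change was -0.50 in WT and -0.72 in *Tet2*-KO, against 0.039 and 0.032 over all genes. Over pools, 12 fell in WT and 21 in *Tet2*-KO. *Ncl*, which encodes nucleolin, was at 1604, 1426, 1590.2 and 1469 CPM in WT mice with vehicle and 1118, 932, 1000.3 and 1264 CPM with IL1β (-0.50 ± 0.10, adjusted p = 0.00141). In the knockout it was at 1587, 1719, 1307 and 1575 CPM with vehicle and 874, 1077, 1015 and 930.1 CPM with IL1β (-0.67 ± 0.10, adjusted p = 5.97e-05). Neither pair of groups overlapped.

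*Nhp2*, a core protein of the box H/ACA particles that modify ribosomal RNA, was at 419, 325, 303 and 327 CPM with vehicle and 211, 189.9, 151 and 187 CPM with IL1β in WT mice (-0.89 ± 0.13, adjusted p = 0.000155). *Nop56*, of the box C/D particles, fell in *Tet2*-KO mice (log2 fold change -0.79 ± 0.10), from 231, 256, 228 and 265 to 124, 169, 136 and 136 CPM (adjusted p = 2.08e-05). *Npm1* (nucleophosmin) did not pass, at 2915 ± 180.0 and 2626 ± 263 CPM in WT mice (-0.15 ± 0.084, adjusted p = 0.197). *Polr1b*, a subunit of RNA polymerase I, did not pass either (0.072 ± 0.15, adjusted p = 0.774). *Myc*, the factor known for driving these genes, was at 85.3, 105, 106 and 89.6 CPM in WT mice with vehicle and 65.1, 76.3, 64 and 90.2 CPM with IL1β and did not pass the test (-0.39 ± 0.19, adjusted p = 0.132). *Srm*, the spermidine synthase gene, fell in *Tet2*-KO mice from 244, 244, 275 and 296 to 93.9, 128, 113 and 95.1 CPM (-1.30 ± 0.14, adjusted p = 5.4e-06).

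**Figure D4:**
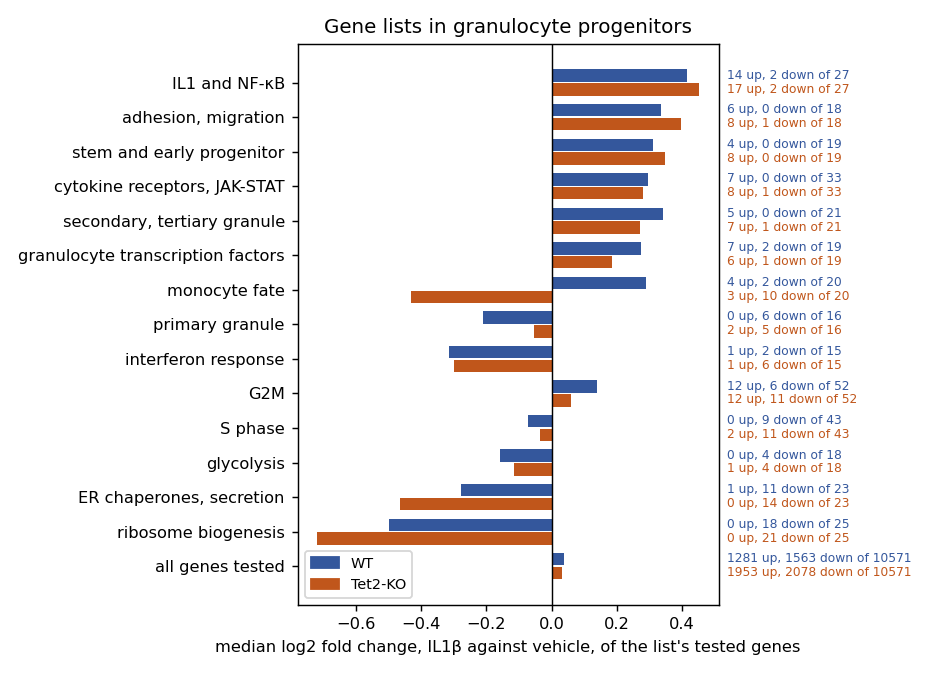
Median log2 fold change with IL1β against vehicle of the tested genes of 14 gene lists and of all 10571 genes tested, in granulocyte progenitors of WT and *Tet2*-KO mice, with the number of genes called higher and lower at the right. Of the 14 lists drawn, ribosome biogenesis shows the lowest medians (-0.50 and -0.72) and the IL1 and NF-κB list the highest (0.42 and 0.45). The immediate-early, antigen presentation, oxidative burst, DNA methylation and marker lists are not drawn. Some of these go beyond that range. Medians in WT and *Tet2*-KO were 0.83 and -0.043 for the immediate-early list and -0.67 and -1.16 for erythroid markers.

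Cell cycle genes did not move as 1 group. Of 43 S phase genes, 9 fell and 0 rose in WT mice and 11 fell and 2 rose in *Tet2*-KO mice, and the WT count was 4 without WT vehicle mouse 3 and 5 without WT vehicle mouse 1 or WT IL1β mouse 3 or 4. The 2 risers in *Tet2*-KO became 1 without *Tet2*-KO vehicle mouse 4 or *Tet2*-KO IL1β mouse 1 or 4. In WT mice leaving out 1 mouse gave 0 to 2 S phase risers. *Tyms* (thymidylate synthase), *Gins2* and *Ung* fell in both genotypes. Of 52 G2M genes, 12 rose and 6 fell in WT mice, and 12 rose and 11 fell in *Tet2*-KO mice. The 12 risers in WT became 6 without WT IL1β mouse 4 and 7 without WT vehicle mouse 1. The 6 G2M falls in WT became 2 without WT vehicle mouse 1 or WT IL1β mouse 3, and the 11 in *Tet2*-KO became 7 without *Tet2*-KO vehicle mouse 2. Pools called 1 S phase gene lower in WT and 4 in *Tet2*-KO, and of G2M genes none in WT and 1 higher and 1 lower in *Tet2*-KO. *Tubb4b*, a tubulin gene, fell most among them in *Tet2*-KO mice, from 314, 410.2, 402 and 437 to 175, 205, 199.99 and 191 CPM (-1.02 ± 0.10, adjusted p = 3.47e-06). Of 18 glycolysis genes, 4 fell and 0 rose in WT mice and 4 fell and 1 rose in *Tet2*-KO mice. The WT count of falls was 1 without WT vehicle mouse 1 or WT IL1β mouse 3, and the *Tet2*-KO count was 2 without *Tet2*-KO vehicle mouse 4. The 1 riser became 0 without *Tet2*-KO IL1β mouse 3 or 4 and 2 without *Tet2*-KO IL1β mouse 2. Over pools, 0 fell in WT and 1 in *Tet2*-KO, and 0 rose.

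Some interferon response genes fell. Of 15 tested interferon response genes, 2 fell and 1 rose in WT mice, close to the background share of 14.8% lower, and 6 fell and 1 rose in *Tet2*-KO mice. Over pools, where 20 were tested, 1 fell in WT and 6 in *Tet2*-KO, and 0 rose. *Isg15* was at 8.45, 6.45, 11.5 and 2.92 CPM in *Tet2*-KO mice with vehicle and 2.45, 4.37, 3.2 and 4.13 CPM with IL1β (-1.10 ± 0.31, adjusted p = 0.00917). *Ifi27l2a* went from 4.29, 12.4, 6.09 and 3.22 to 1.5, 2.06, 0.914 and 1.4 CPM in the same mice (-2.16 ± 0.37, adjusted p = 0.000184) and was at 1.8, 0, 2.6 and 0.939 CPM in WT mice with vehicle. Both genes are at a few CPM. Of 14 genes of antigen presentation, 3 fell and 1 rose in WT and 4 fell and 1 rose in *Tet2*-KO mice, with the immunoproteasome genes *Psmb8* and *Psmb9* lower in both. Summed dendritic cell markers were at 129 to 160 raw CPM in WT mice with vehicle and 96.5 to 113 with IL1β, and at 135 to 169 and 95.4 to 115 in *Tet2*-KO mice. Most of that sum was *Bst2*, which is also in the interferon list, and 7 of the 9 markers were under 5 raw CPM. Their part in these falls was not tested. The 3 falls in WT became 5 without WT IL1β mouse 4, the 4 in *Tet2*-KO became 7 without WT IL1β mouse 4, *Tet2*-KO vehicle mouse 2 or *Tet2*-KO IL1β mouse 2, and the 1 rise there became 2 without WT vehicle mouse 2 or 3, *Tet2*-KO vehicle mouse 3 or *Tet2*-KO IL1β mouse 4 and 3 without *Tet2*-KO IL1β mouse 3. Over pools, where 16 were tested, 3 fell in WT and 2 in *Tet2*-KO, and 0 rose. Of 14 genes of the oxidative burst and redox defence, 5 rose and 4 fell in WT and 6 rose and 4 fell in *Tet2*-KO mice. The 5 became 3 without WT vehicle mouse 1 or WT IL1β mouse 2 or 3, and the 4 falls in *Tet2*-KO became 2 without *Tet2*-KO vehicle mouse 3 or 4 or *Tet2*-KO IL1β mouse 1 or 2. Over pools, 1 rose and 0 fell in WT, and 4 rose and 1 fell in *Tet2*-KO.

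Monocyte fate genes moved in both directions. Of 20 tested genes, 4 rose and 2 fell in WT mice, while 3 rose and 10 fell in *Tet2*-KO mice. By pool, 2 rose in WT, and 1 rose and 7 fell in *Tet2*-KO. The 2 that fell in WT became 1 without WT vehicle mouse 1, 2 or 3 or WT IL1β mouse 2, 3 or 4. The median log2 fold change was 0.29 in WT and -0.43 in *Tet2*-KO, and the interaction of genotype and treatment called 0 of the 20. *Klf4*, a factor of monocyte differentiation, was at 5.76, 3.51, 4.26 and 3.52 CPM in WT mice with vehicle and 9.77, 4.12, 7.26 and 8.32 CPM with IL1β, and at 19, 16.4, 10.4 and 14.6 CPM with vehicle and 6.68, 10.1, 3.88 and 2.31 CPM with IL1β in *Tet2*-KO mice. It fell in *Tet2*-KO mice (-1.49 ± 0.31, adjusted p = 0.00105) and had 0.83 ± 0.43 in WT mice (adjusted p = 0.16). Its interaction was -2.32 ± 0.52 and did not pass with edgeR (adjusted p = 0.376), but it did without the filter on low counts (adjusted p = 0.0114) and with DESeq2 (adjusted p = 0.0378). *Irf8* fell in *Tet2*-KO mice from 89.6, 74, 97 and 128 to 49, 57.7, 36.7 and 42.5 CPM (-1.06 ± 0.23, adjusted p = 0.00126). In WT mice *Irf8* was at 87.8, 16.4, 47.1 and 50.5 CPM with vehicle and 39.5, 42.3, 44 and 62.4 CPM with IL1β (adjusted p = 0.527). Summed monocyte markers include *Ccr2*, *F13a1* and *Ms4a6c* of this list, while *Csf1r* and *Ly86* are at 0 by the choice of cells. In WT mice they were at 60.7 to 135 raw CPM with vehicle and 159 to 210 with IL1β. In *Tet2*-KO mice they were at 189 to 258 with vehicle and 201 to 238 with IL1β. Their part in these changes was not tested.

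Some genes of adhesion and of early progenitors rose. *Vcam1*, an adhesion molecule, was at 23.7, 46.8, 37.4 and 34.3 CPM in WT mice with vehicle and 79.1, 97.8, 128 and 86.4 CPM with IL1β (1.52 ± 0.27, adjusted p = 0.000552). In *Tet2*-KO mice it was at 40.6, 45.2, 21.3 and 13.2 CPM with vehicle and 84.6, 68.4, 112 and 92 CPM with IL1β (1.55 ± 0.25, adjusted p = 0.000113). Every IL1β mouse exceeded every vehicle mouse. *Vcam1* is no member of the adhesion list, of which 6 of 18 genes rose in WT and 8 rose and 1 fell in *Tet2*-KO mice. The *Tet2*-KO count was 3 without *Tet2*-KO vehicle mouse 3 and 5 without *Tet2*-KO IL1β mouse 1. Over pools, where 19 were tested, 2 rose in each genotype and 0 fell. *Itgam* and *Ccr2* were among those that rose in both genotypes. Of 19 stem and early progenitor genes, 4 rose in WT and 8 in *Tet2*-KO mice, and 0 fell in either. Summed stem cell markers, of which *Hlf* and *Mecom* are also in this list, were at 18.8 to 32.8 raw CPM in WT mice with vehicle and 36.7 to 55.2 with IL1β, and at 16.7 to 31.2 and 29.96 to 40.5 in *Tet2*-KO mice. *Gata2*, 1 of the 4 WT risers, is also a basophil and mast cell marker, and 5 of the 7 markers of those cells rose in WT mice, against 0 over pools. The 5 became 3 without WT vehicle mouse 1 or 3 or WT IL1β mouse 3. In *Tet2*-KO mice 3 of the 7 rose, and 2 over pools. The 3 became 1 without *Tet2*-KO vehicle mouse 1, 2 or 3 or *Tet2*-KO IL1β mouse 2 or 3. The part of these markers was not tested. The WT count of stem and early progenitor genes was 1 without WT vehicle mouse 1 or WT IL1β mouse 3. It was 2 without WT vehicle mouse 2, 3 or 4 or WT IL1β mouse 2 or 4. Over pools, 0 rose in WT and 4 in *Tet2*-KO. *Hlf* and *Msi2* were among the risers in both genotypes, and *Kit* and *Flt3* in *Tet2*-KO mice.

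Immediate-early genes differed between the pools of each group. Of 15 genes of this list, which the study chose on these samples and which is therefore no independent evidence, 2 rose in WT mice with IL1β (*Dusp1*, *Ier5*) and 1 fell in *Tet2*-KO mice (*Klf4*). The 2 became 1 without WT vehicle mouse 1, 2, 3 or 4, WT IL1β mouse 1 or 2, *Tet2*-KO vehicle mouse 1 or *Tet2*-KO IL1β mouse 1, and the 1 became 3 without *Tet2*-KO IL1β mouse 2. Over pools, 0 rose in WT and 1 fell in *Tet2*-KO. *Fos* was at 84.9, 45.6, 38.6 and 31.4 CPM in WT mice with vehicle, 245, 107, 48.2 and 44.4 CPM in WT mice with IL1β, 202, 257, 56.6 and 69.9 CPM in *Tet2*-KO mice with vehicle and 190.4, 316, 30.8 and 38.3 CPM in *Tet2*-KO mice with IL1β. In each group the pool of mice 1 and 2 was above that of mice 3 and 4. This held in all 4 groups for 9 of the 15 genes, and for 0.445% of all genes tested. *Dusp1*, a phosphatase that dampens MAP kinases, spanned 231, 97.1, 36.8 and 30.5 CPM among the WT mice with IL1β. The labels give the pools only as replicate numbers and name no batch.

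Other genes with the largest rises were as follows. In WT mice *Cd69*, an early activation marker, was at 60.1, 55, 53.7 and 48.6 CPM with vehicle and 144, 179, 121 and 115 CPM with IL1β (1.37 ± 0.18, adjusted p = 9.34e-05). *Pmaip1*, which encodes the cell death protein NOXA, was at 5.4, 2.34, 0.71 and 0.704 CPM with vehicle and 44.7, 23.1, 11.5 and 10.1 CPM with IL1β (3.63 ± 0.84, adjusted p = 0.00362). *Mt2*, a metallothionein gene, rose by 1.37 ± 0.29 (adjusted p = 0.00185). *Rgs1*, a regulator of G protein signalling, had 1.60 ± 0.56 (adjusted p = 0.0385), and its call was lost without WT vehicle mouse 1, 2, 3 or 4 or WT IL1β mouse 1 (adjusted p up to 0.147). *Ms4a2*, the β chain of the mast cell and basophil IgE receptor, was at 8.64, 3.51, 5.68 and 9.86 CPM with vehicle and 11.3, 11.3, 26 and 31.9 CPM with IL1β (1.33 ± 0.35, adjusted p = 0.00924). Summed markers of basophils and mast cells include *Ms4a2*. In WT mice they were at 184 to 420 raw CPM with vehicle and 335 to 906 with IL1β. In *Tet2*-KO mice they were at 241.5 to 281 with vehicle and 338 to 603 with IL1β. Their part in the rise of *Ms4a2* was not tested.

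Among *Tet2*-KO mice *Ccng2*, a cyclin of cells leaving the cycle, was at 8.99, 5.21, 4.83 and 7.02 CPM with vehicle and 21.4, 21.4, 18.1 and 20.4 CPM with IL1β (1.60 ± 0.17, adjusted p = 4.62e-06). *Gsn*, which encodes the actin-severing protein gelsolin, was at 13.3, 9.68, 11.1 and 5.56 CPM with vehicle and 27.5, 22.9, 30.1 and 24.8 CPM with IL1β (1.35 ± 0.20, adjusted p = 5.1e-05). *Casp4*, which encodes the inflammatory caspase-11 of the mouse, rose by 1.18 ± 0.16 (adjusted p = 2.25e-05). These rises passed in WT mice as well, with 1.56 ± 0.20, 1.01 ± 0.24 and 0.93 ± 0.18. The others named by rank, *Olr1*, *Klhl24*, *Marcks* and *Rsrp1*, had log2 fold changes from 1.23 to 1.34. All 10 genes with the largest rises in *Tet2*-KO mice stayed called with the pool as the replicate, and 6 of the 10 in WT mice (*Cd69*, *Cybb*, *Nfkbia*, *Nfkbiz*, *Tnfaip3*, *Vcam1*).

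Among the largest falls in WT mice, *Ubb*, a polyubiquitin gene, was at 602, 566, 416 and 433 CPM with vehicle and 235, 218, 169 and 159 CPM with IL1β (-1.36 ± 0.17, adjusted p = 8.79e-05). *Ifi27*, an interferon-inducible gene, was at 73.4, 63.2, 51.6 and 50.9 CPM with vehicle and 24.8, 27.4, 20.5 and 20.1 CPM with IL1β (-1.33 ± 0.16, adjusted p = 7.94e-05). *Polr2j*, *Fam195a*, *Hist1h1e*, *Bmyc*, *Gcsh*, *Nudc* and *Txnl4a* followed, with log2 fold changes from -1.23 to -1.14. Of the 10 largest falls in WT mice, 9 stayed called with the pool as the replicate, all but *Hist1h1e*. In the knockout *Prdx4*, a peroxiredoxin of the endoplasmic reticulum, was at 20.3, 20.4, 19.7 and 23.7 CPM with vehicle and 6.81, 7.28, 8.68 and 9.24 CPM with IL1β (-1.36 ± 0.16, adjusted p = 6.35e-06). *Hsph1*, a heat shock protein gene, had a log2 fold change of -1.43, and the fatty acid binding protein gene *Fabp5* one of -1.28.

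The α-globin gene *Hba-a1* was at 84.9, 141, 245 and 74.3 CPM in *Tet2*-KO mice with vehicle and 66.6, 20.9, 72.5 and 40.2 CPM with IL1β (-1.45 ± 0.42, adjusted p = 0.0107). Its call was lost without *Tet2*-KO vehicle mouse 3 (adjusted p up to 0.0755). *Hba-a2* is a near-identical copy, so the reads of both genes cannot be told apart with certainty. *Blvrb*, a heme breakdown enzyme gene, was at 77.8, 88.8, 149.7 and 80.7 CPM with vehicle and 32.7, 28.3, 43.8 and 50.3 CPM with IL1β (-1.35 ± 0.23, adjusted p = 0.000211). Summed erythroid markers include *Hba-a1* and *Hba-a2*. In WT mice they were at 577 to 1756 raw CPM with vehicle and 552 to 1195 with IL1β. In *Tet2*-KO mice they were at 583 to 1192 with vehicle and 255 to 496 with IL1β. In the assigned cells that were not members they stood at 3393. Their part in the falls was not tested.

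Genotype changed few genes. With vehicle, 19 of 10571 genes (0.18%) were called, 13 higher (0.123%) and 6 lower (0.0568%) in the knockout. With IL1β, 41 genes (0.388%) were called, 21 higher (0.199%) and 20 lower (0.189%). At pool level, 1 gene was called with vehicle and 3 with IL1β. DESeq2 called 43 and 103, and the fit without the filter on low counts 47 and 112. The count with vehicle was 6 without WT vehicle mouse 4, 9 without mouse 3 and 12 without mouse 2 of that group, and 11 without *Tet2*-KO vehicle mouse 1 or 3. The count with IL1β was 15, 19, 25 and 69 without *Tet2*-KO IL1β mouse 4, 1, 3 and 2, 24 and 26 without WT IL1β mouse 3 and 4, and 25 without WT vehicle mouse 4. Mice did not overlap for 3.77% of genes with vehicle and 6.83% with IL1β. Of the genes below that were named by their rank, *Commd10* was the only one that stayed called with the pool as the replicate.

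*Commd10*, which encodes a protein of the COMMD family of endosomal sorting and NF-κB regulators, differed most clearly. It was at 11.2, 5.85, 7.34 and 6.57 CPM in WT and 22.8, 23.1, 23.5 and 29.2 CPM in *Tet2*-KO mice with vehicle (1.63 ± 0.16, adjusted p = 2.98e-05). With IL1β it was at 9.34, 9.07, 9.51 and 9.37 CPM in WT and 21.5, 27.5, 23.8 and 21.1 CPM in *Tet2*-KO mice (1.33 ± 0.13, adjusted p = 2.22e-05). All 8 *Tet2*-KO mice lay above all 8 WT mice.

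Several monocyte fate genes were higher in *Tet2*-KO mice with vehicle. Of 20 tested monocyte fate genes, 4 were higher (*Ccr2*, *F13a1*, *Ms4a6c*, *Ly6c2*) and 0 lower. The count was 1 without WT vehicle mouse 3 or *Tet2*-KO vehicle mouse 4 and 2 without WT vehicle mouse 2 or 4 or *Tet2*-KO vehicle mouse 1, and 0 with the pool as the replicate. *Ly6c2*, which encodes the surface antigen Ly6C, was at 1223, 1303, 1347 and 1478 CPM in WT and 2132, 2132, 2161 and 1809 CPM in *Tet2*-KO mice with vehicle (0.62 ± 0.098, adjusted p = 0.0116). With IL1β it was at 1147, 1342, 1602 and 1624 CPM in WT and 2209, 2168, 2123 and 2068 CPM in *Tet2*-KO mice (0.58 ± 0.098, adjusted p = 0.0101). The genotypes did not overlap under either treatment, and its call with vehicle held whichever mouse was left out but not over pools. *Ccr2*, the receptor that lets monocytes leave the marrow, was at 18.4, 10.5, 13 and 24.6 CPM in WT and 40.8, 36.5, 28.1 and 44.2 CPM in *Tet2*-KO mice with vehicle (1.06 ± 0.19, adjusted p = 0.0175). That call was lost without WT vehicle mouse 1, 2 or 3 or *Tet2*-KO vehicle mouse 1 or 4 (adjusted p up to 0.171). *F13a1* (coagulation factor XIII) had 0.81 ± 0.15 (adjusted p = 0.0175), lost without WT vehicle mouse 3 or 4 or *Tet2*-KO vehicle mouse 1 or 4 (adjusted p up to 0.117). *Ms4a6c* had 1.06 ± 0.19 (adjusted p = 0.0173), lost without WT vehicle mouse 2, 3 or 4 or *Tet2*-KO vehicle mouse 3 or 4 (adjusted p up to 0.117). The summed monocyte markers given above, *F13a1* and *Ccr2* among them, did not overlap between the genotypes with vehicle.

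Other genes higher in *Tet2*-KO mice with vehicle were *Lyz2*, *Anxa1*, *Slfn2*, *Clec5a* and *Rassf4*. *Lyz2* (lysozyme) was at 71.2, 66.7, 76.2 and 68.5 CPM in WT and 117, 108, 170.1 and 125 CPM in *Tet2*-KO mice (0.87 ± 0.13, adjusted p = 0.00496), and with IL1β at 57.8, 51.1, 60.1 and 73.2 CPM in WT and 68.1, 70.7, 78.6 and 69.1 CPM in *Tet2*-KO mice (adjusted p = 0.459). *Anxa1* (annexin A1), a calcium-binding regulator of neutrophil migration, was at 123, 105, 122 and 133 CPM in WT and 202, 208, 216 and 219 CPM in *Tet2*-KO mice with vehicle (0.79 ± 0.13, adjusted p = 0.0119). With IL1β *Anxa1* was at 153, 123, 144 and 129 CPM in WT and 210.1, 198, 313 and 297 CPM in *Tet2*-KO mice (0.89 ± 0.12, adjusted p = 0.00274). Neither pair overlapped, and these calls of *Lyz2* and *Anxa1* held whichever mouse was left out. *Slfn2* had 1.38 ± 0.24 (adjusted p = 0.0141), lost without WT vehicle mouse 1 or 4 (adjusted p up to 0.124). *Clec5a*, a myeloid lectin gene, had 0.95 ± 0.17 (adjusted p = 0.0143), lost without WT vehicle mouse 3 or 4 or *Tet2*-KO vehicle mouse 1 (adjusted p up to 0.124). *Rassf4* had 0.81 ± 0.14 (adjusted p = 0.0141), lost without WT vehicle mouse 3 or 4 or *Tet2*-KO vehicle mouse 3 (adjusted p up to 0.117).

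The homeobox genes *Hoxa9* and *Hoxa7*, which are active in early progenitors and decline as myeloid cells mature, were lower in *Tet2*-KO mice. *Hoxa9* was at 31.7, 23.4, 21.3 and 28.2 CPM in WT and 16.5, 11.2, 11.6 and 8.48 CPM in *Tet2*-KO mice with vehicle (-1.09 ± 0.19, adjusted p = 0.0141). With IL1β it was at 30.9, 33, 36.9 and 29.1 CPM in WT and 20.6, 24.9, 19.3 and 15.7 CPM in *Tet2*-KO mice (-0.72 ± 0.15, adjusted p = 0.0446). The genotypes did not overlap under either treatment. The call was lost with vehicle without WT vehicle mouse 1 or 4 or *Tet2*-KO vehicle mouse 3 (adjusted p up to 0.0898), and with IL1β without WT vehicle mouse 4, WT IL1β mouse 1, 2, 3 or 4 or *Tet2*-KO IL1β mouse 1, 3 or 4 (adjusted p up to 0.132). *Hoxa7* was at 26.6, 16.4, 16.6 and 20.4 CPM in WT and 11, 9.93, 9.31 and 12 CPM in *Tet2*-KO mice with vehicle (-0.95 ± 0.17, adjusted p = 0.0141). With IL1β it was at 21.9, 23.5, 24.5 and 26.4 CPM in WT and 12.7, 19, 14.8 and 15.8 CPM in *Tet2*-KO mice (-0.61 ± 0.13, adjusted p = 0.0446), a call lost without WT vehicle mouse 4, WT IL1β mouse 1, 2, 3 or 4, *Tet2*-KO vehicle mouse 1 or 2 or *Tet2*-KO IL1β mouse 1, 3 or 4 (adjusted p up to 0.161). Both were the only members of the stem and early progenitor list called between genotypes, and with vehicle they numbered 0 without WT vehicle mouse 1 or 4 or *Tet2*-KO vehicle mouse 3. Neither was called over pools. *Dtwd1*, a tRNA-modifying enzyme gene, was at 28.8, 35.1, 26.3 and 26.5 CPM in WT and 15.2, 16.4, 16.5 and 18.7 CPM in *Tet2*-KO mice with vehicle (-0.76 ± 0.13, adjusted p = 0.0143), lost without WT vehicle mouse 4 or *Tet2*-KO vehicle mouse 1 or 3 (adjusted p up to 0.0723). With IL1β *Dtwd1* was at 24.1, 21.2, 27 and 20.8 CPM in WT and 13.1, 12.7, 17.5 and 14.5 CPM in *Tet2*-KO mice (-0.70 ± 0.12, adjusted p = 0.0101), and this call held whichever mouse was left out. *Dio2*, a deiodinase gene, had -0.62 ± 0.12 (adjusted p = 0.0302), lost without WT vehicle mouse 1, 2, 3 or 4 or *Tet2*-KO vehicle mouse 2, 3 or 4 (adjusted p up to 0.124).

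With IL1β, 3 of 21 secondary and tertiary granule genes were higher in *Tet2*-KO mice (*Fcnb*, *Chil3*, *Anxa1*), a count of 1 without WT vehicle mouse 3 or 4, WT IL1β mouse 1, 2 or 4 or *Tet2*-KO IL1β mouse 3 or 4, 5 without *Tet2*-KO vehicle mouse 4 and 6 without *Tet2*-KO IL1β mouse 2, and 0 over pools. *Fcnb* was at 51.1, 40.2, 73.5 and 44.1 CPM in WT and 96, 93.5, 143 and 123 CPM in *Tet2*-KO mice (1.11 ± 0.23, adjusted p = 0.0446), and the call was lost without WT vehicle mouse 3 or 4, WT IL1β mouse 1, 2 or 4 or *Tet2*-KO IL1β mouse 1, 3 or 4 (adjusted p up to 0.123). *Chil3*, a chitinase-like protein of maturing neutrophils, was at 20.6, 8.87, 13.9 and 17 CPM in WT and 26.7, 38.5, 49.5 and 129 CPM in *Tet2*-KO mice (1.98 ± 0.42, adjusted p = 0.0446). *Tet2*-KO IL1β mouse 4 stood far above the other mice, and the call was lost without WT vehicle mouse 2, 3 or 4, WT IL1β mouse 1, 2, 3 or 4, *Tet2*-KO vehicle mouse 1 or *Tet2*-KO IL1β mouse 3 or 4 (adjusted p up to 0.141). *Clec4a2* (1.02 ± 0.18, adjusted p = 0.013), *Gng11* (0.86 ± 0.13, adjusted p = 0.00463) and the microsomal glutathione transferase gene *Mgst1* (0.85 ± 0.14, adjusted p = 0.0101) were also higher, and their calls held whichever mouse was left out. *Ifi27* was higher too (0.83 ± 0.15, adjusted p = 0.0158), a call lost without WT IL1β mouse 3 or *Tet2*-KO IL1β mouse 4 (adjusted p up to 0.0641).

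Lower in *Tet2*-KO mice with IL1β were *Mxi1*, an antagonist of MYC, *Car2* and *Alad*. Of the 10 erythroid markers, *Car2* was the 1 called, and 0 were called over pools. *Mxi1* was at 50.6, 57.5, 64.3 and 48.2 CPM in WT and 34.6, 35.2, 36.5 and 36 CPM in *Tet2*-KO mice (-0.64 ± 0.11, adjusted p = 0.0125), a call that held whichever mouse was left out. *Car2* (carbonic anhydrase 2) was at 175, 177, 332 and 332 CPM in WT and 112, 92, 143 and 140.1 CPM in *Tet2*-KO mice (-1.05 ± 0.23, adjusted p = 0.0446), lost without WT vehicle mouse 2, 3 or 4, WT IL1β mouse 3 or 4, *Tet2*-KO vehicle mouse 1 or 2 or *Tet2*-KO IL1β mouse 1, 2, 3 or 4 (adjusted p up to 0.153). *Alad*, an enzyme of heme synthesis, had -0.61 ± 0.12 (adjusted p = 0.0244), lost without WT IL1β mouse 3 or 4 or *Tet2*-KO IL1β mouse 1 or 4 (adjusted p up to 0.079). The summed erythroid markers given above, *Car2* among them, did not overlap between the genotypes with IL1β, and their part was not tested. *Mcm3ap*, *Tspan13*, *Hspa2* and *Ttll12* were lower too, with log2 fold changes from -0.58 to -0.55, and *Far2* and *Slc6a13* higher (0.68 and 0.62). Each of these 6 calls was lost in at least 5 of the 16 refits that left out 1 mouse.

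**Figure D5:**
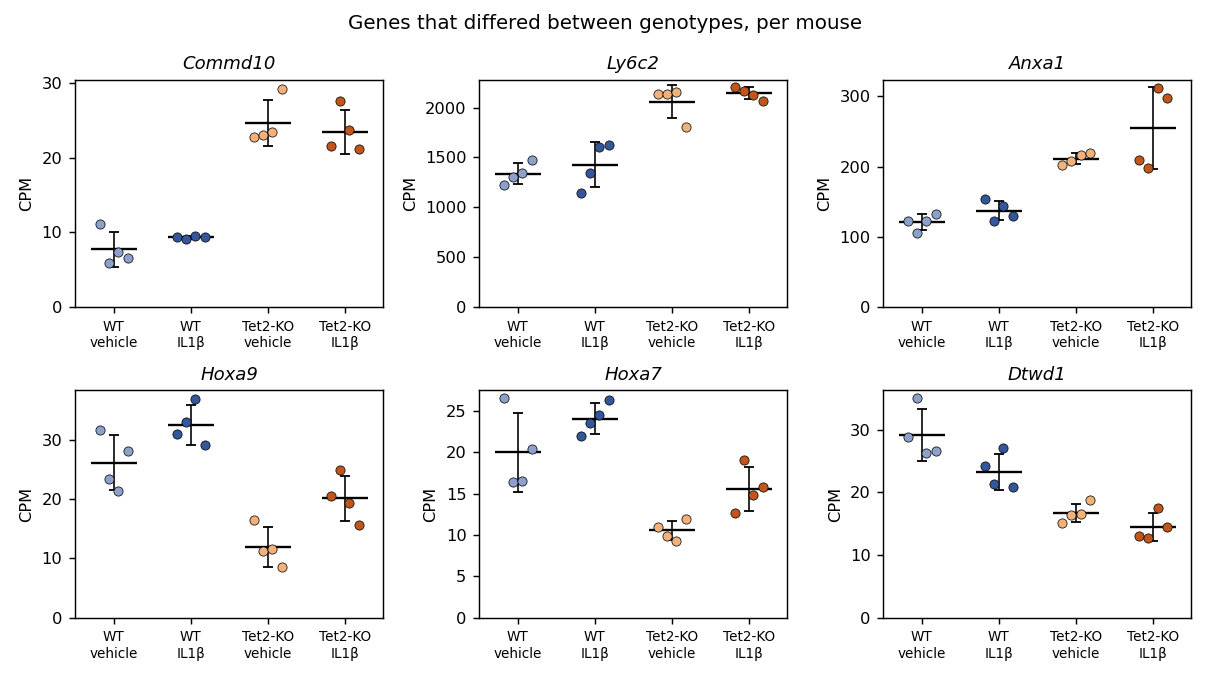
CPM per mouse of *Commd10*, *Ly6c2*, *Anxa1*, *Hoxa9*, *Hoxa7* and *Dtwd1* in granulocyte progenitors, by group. Points are mice, and lines and bars are mean ± SD of 4 mice. *Commd10* lies at or above 21.1 CPM in all 8 *Tet2*-KO mice and at or below 11.2 CPM in all 8 WT mice.

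With edgeR, no gene passed the test of a difference between genotypes in the response to IL1β after adjustment. The smallest adjusted p of the interaction, 0.182, was shared by *Lgals3*, *S100a4* and *Prdx4*. *Prdx4*, with an interaction of -1.20 ± 0.23, was at 15.1, 18.7, 14 and 14.1 CPM in WT mice with vehicle and 11.1, 10.7, 13.7 and 20.1 CPM with IL1β, against the fall in *Tet2*-KO mice given above. *Lgals3* (galectin 3), *S100a4* and *S100a6* had interactions of -2.31 ± 0.43, -1.89 ± 0.36 and -1.83 ± 0.40 (adjusted p = 0.182, 0.182 and 0.376). They were called in refits that left out 1 mouse, *Lgals3* without WT IL1β mouse 2 or *Tet2*-KO IL1β mouse 3 (adjusted p down to 0.0271), *S100a4* without WT IL1β mouse 2 or *Tet2*-KO vehicle mouse 3 (adjusted p down to 0.0339), and *S100a6* without *Tet2*-KO vehicle mouse 3 (adjusted p down to 0.0398). Without the filter on low counts 6 genes were called (*Lgals3*, *S100a4*, *S100a6*, *Prdx4*, *Ahnak* and *Klf4*, adjusted p up to 0.0158). DESeq2 called these 6 but *S100a6* (adjusted p from 0.00157 to 0.0378). On the positive side the smallest p values were those of *Cyth1* (0.74 ± 0.17, adjusted p = 0.376) and *Arel1* (0.73 ± 0.19, adjusted p = 0.622). The effects seen in 1 genotype and not the other, such as those of *Mpo* and *Xbp1*, are thus not shown to differ.

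The response to IL1β was also set against that of 2 neighbouring sets of cells from the same mice, with the mouse as a block. Immature myeloid cells (3637 cells with at least 5 UMIs of *Mpo*, at least 1 of *Cd34* and none of *Ms4a3*) had a median of 5529 UMIs. Monocyte-primed cells (6866 cells with at least 5 UMIs of *Mpo* and at least 1 each of *Irf8* and *Ly86*) had a median of 8229. Against immature myeloid cells, the effect of IL1β over both genotypes differed for 34 of 9906 genes (0.343%), with a larger (more positive) log2 effect in granulocyte progenitors for 6 and a smaller one for 28. Within WT mice alone 0 were larger and 1 smaller, and within *Tet2*-KO mice 2 were larger and 23 smaller. Without the filter on low counts 35 were larger and 91 smaller.

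Several inducible genes had a smaller IL1β effect in granulocyte progenitors than in immature myeloid cells. *Nfkbia* had a mean of 38.1 CPM with vehicle and 164 CPM with IL1β in WT granulocyte progenitors, against 38.3 and 372 CPM in immature myeloid cells. In *Tet2*-KO mice the means were 36.1 and 116 CPM in granulocyte progenitors, against 33.5 and 447 CPM. The difference of the log2 effects was -1.57 ± 0.18 (adjusted p = 1.39e-05). *Tnf*, the cytokine gene, had 3.09 and 8.38 CPM in WT granulocyte progenitors against 6.74 and 62.1 CPM in WT immature cells, a difference of -2.47 ± 0.48 (adjusted p = 0.0142). *Gadd45b*, a stress gene, had 55.0 and 47.2 CPM against 12.9 and 53.4 CPM (-2.05 ± 0.30, adjusted p = 0.000565). *Junb* (-0.99 ± 0.17), *Ier3* (-1.11 ± 0.21) and *Pim1* (-0.94 ± 0.14), all inducible genes, were smaller as well. Among 28 tested genes of the IL1 and NF-κB list, *Nfkbia* was the only one called against these cells, and the median difference was -0.25. The larger (more positive) effects included those of *Ifitm1* (0.51 ± 0.094), *Mybl2* (0.71 ± 0.14), *B4galt4*, *Hist1h1b* and *Osbpl3*. Not all of these were stronger rises. *Hist1h1b* and *B4galt4* fell in both sets of cells, and less in granulocyte progenitors. In WT mice *Hist1h1b* went from 483 to 268 CPM against 438.5 to 202 CPM in immature cells. *Mybl2* went from 46.8 to 49.1 CPM against 40.5 to 22.1 CPM in the same mice. These CPM are scaled over both sets of cells and differ slightly from those above.

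Against monocyte-primed cells, the effect differed for 63 of 10801 genes (0.583%), 36 larger and 27 smaller. Within WT mice alone 2 were larger and 4 smaller, and within *Tet2*-KO mice 19 were larger and 33 smaller. Without the filter on low counts 164 were larger and 55 smaller. *Hsp90b1*, the chaperone GRP94, fell more in granulocyte progenitors, from 1122 to 923 CPM in WT mice, against 873 and 874 CPM in monocyte-primed cells (-0.22 ± 0.036, adjusted p = 0.00158). In *Tet2*-KO mice it fell in both, from 1147 to 826 CPM against 982 to 794 CPM. *Creld2* and *Sdf2l1* of the same list were called smaller too, 3 of its 23 genes in all. *Prss57*, a granule protease gene, had 370 and 341 CPM in WT granulocyte progenitors and 91.9 and 118 CPM in monocyte-primed cells (-0.41 ± 0.075, adjusted p = 0.00902). In *Tet2*-KO mice it was higher with IL1β in both, at 337 and 366 CPM against 83.0 and 110 CPM. *Pim1* rose from 39.4 to 86.8 CPM in WT granulocyte progenitors and from 60.8 to 179 CPM in monocyte-primed cells (-0.47 ± 0.090, adjusted p = 0.0103). In the other direction, *Anxa2* rose from 37.1 to 61.6 CPM in WT granulocyte progenitors and from 146 to 170 CPM in monocyte-primed cells (0.50 ± 0.071, adjusted p = 0.000575). Of the 15 immediate-early genes, 4 had a more positive effect in granulocyte progenitors (*Egr1*, *Fosb*, *Fos*, *Dusp1*). *Egr1* went from 19.15 to 26.4 CPM in WT mice, against a fall from 54.4 to 41.6 CPM in monocyte-primed cells. In *Tet2*-KO mice it went from 36.3 to 45.9 CPM, against 97.3 to 70.4 CPM. *Fosb* rose in both sets in WT mice. In *Tet2*-KO mice *Fosb* fell in both, from 81.0 to 64.9 CPM against 136.9 to 77.6 CPM. Ribosome biogenesis genes showed no called difference from monocyte-primed cells among 25 tested, and 1, *Ncl*, from immature myeloid cells.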

How the data were processed

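The authors sequenced 10x 3′ v3.1 libraries of 8 pools and deposited raw UMI counts per gene and cell and hashtag counts per cell. Per the submitters' processing notes these came from Cell Ranger 3.1.0 with mm10 and were handled in Seurat 3.2.3. Cells were assigned to mice with HTODemux (Seurat 5.3.0), and cells with both hashtags, which include doublets, left the values per mouse. Doublets of 1 mouse were not removed. Counts of assigned members were summed per mouse and tested with edgeR 4.0.16 (TMM, quasi-likelihood, 4 groups in 1 fit, Benjamini-Hochberg adjusted p under 0.05) in R 4.3.3, without the 7 genes that chose the cells. Responses were compared between sets of cells with the mouse as a block. Shares were compared with exact two-sided permutation tests (scipy 1.17.1). The labels do not name a batch, and mice of 1 pool share a library, so p-values may in part measure spread between libraries.

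The genes named by rank were, per pair comparison and direction, up to 10 called genes with the largest fold change, a group mean of at least 20 CPM and no overlap between the groups' mice, and the 8 with the smallest p in each direction for the interaction and for the differences between sets of cells. Other genes are named inside their list. The text leaves out some genes these ranks give. The members, the lists and the motifs were chosen with earlier results of these data known. On simulated counts (about 10400 genes) the fit recovered 98.5% to 100% of changed genes, with 2.93% to 7.94% false calls among those made. Those counts were drawn independently for each mouse, with changes of log2 1 or 2 in genes of at least 20 CPM. They held no likeness between mice of 1 pool and no smaller changes, so they do not measure errors from either. Alternatives were other limits on *Elane* and on the later granule genes, a hashtag ratio rule, pools as replicates, replicate blocks, DESeq2 1.42.0, no filter on low counts, other normalization factors, *Xist* as a covariate, the cells with the most UMIs left out, other or no thinning of cells, each genotype alone for the sets of cells, and each mouse left out. Depth per mouse is given with the samples.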

Additional observations from a re-analysis of the deposited data

Results flagged for a closer look

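Of 316 groups of 4 mice scanned, 22 (6.96%) held a mouse far from the other 3, and chance alone flags about 1 in 20. Among the stage shares, *Fcnb* had a UMI in 9.23% of cells of WT vehicle mouse 1, against 17.1% to 18.3% in the other mice. The summed granulocyte markers were at 25870 raw CPM in *Tet2*-KO vehicle mouse 3, above 23320 to 23470. That sum includes *Elane* and *Ms4a3*, which the choice of cells read, so its flag is a description only. Eosinophil markers were at 84.9 in WT vehicle mouse 1 and 110.7 in *Tet2*-KO vehicle mouse 4, where the others reached 26.2 and 23.1. Megakaryocyte markers were at 119 in WT vehicle mouse 4 and 674.8 in *Tet2*-KO IL1β mouse 2, where the others reached 36.5 and 53.3.

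Single genes stood apart in 1 mouse of their group as well, in CPM. *Tnfaip3* was at 4.68 in WT vehicle mouse 2, *Ms4a2* at 5.86 and *Klhl24* at 71.0 in *Tet2*-KO IL1β mouse 1, and *Hsph1* at 123.5 in WT vehicle mouse 3 and 42.9 in *Tet2*-KO IL1β mouse 2. In *Tet2*-KO vehicle mouse 4, *Prdx4* was at 23.7, *Commd10* at 29.2 and *Ly6c2* at 1809, the last below 2132 to 2161 in the other mice. *Blvrb* was at 149.7 in *Tet2*-KO vehicle mouse 3. *Ms4a6c* was at 54.5 in WT IL1β mouse 4 and 69.99 in *Tet2*-KO IL1β mouse 2. *Dio2* was at 32.8 and *Tspan13* at 31.6 in WT vehicle mouse 2, and *Far2* at 10.4 in WT vehicle mouse 1. In WT IL1β mouse 4, *Mgst1* and *Tspan13* were both at 39.9.

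The IL1β effect differed by test between granulocyte progenitors and monocyte-primed cells for 63 genes and between them and immature myeloid cells for 34. Against monocyte-primed cells the log2 differences of genes ranked first were 0.50 for *Anxa2*, 0.75 for *Egr1*, 0.25 for *Pnp*, 0.51 for *Fosb*, 0.19 for *Cst3*, 0.35 for *Adgrg3* and 0.36 for *Sp100*, and -0.22 for *Hsp90b1*, -0.41 for *Prss57*, -1.26 for *Plxnb2*, -0.51 for *Pde4d*, -0.39 for *Tifab*, -0.15 for *Fth1*, -0.47 for *Pim1* and -0.24 for *Pdcd4*. Against immature myeloid cells they were 0.51 for *Ifitm1*, 0.71 for *Mybl2*, 0.94 for *B4galt4*, 0.39 for *Hist1h1b* and 0.83 for *Osbpl3*, and -1.57 for *Nfkbia*, -2.05 for *Gadd45b*, -0.38 for *Hspa8*, -0.94 for *Pim1*, -0.99 for *Junb*, -1.11 for *Ier3*, -0.25 for *Ncl* and -2.47 for *Tnf*.

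Cells without a hashtag entered no value per mouse. Granulocyte progenitors made up 6.27% and 8.53% of them in the WT IL1β pools, above 4.14% and 0.620% in the WT vehicle pools. The *Tet2*-KO pools overlapped, at 20.1% and 1.32% with IL1β and 11.9% and 0.867% with vehicle.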

How the results depend on the processing

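The counts of genes changed by IL1β moved by more than 1.5 times only with the pool as the replicate, to 398 in WT and 1720 in *Tet2*-KO mice. Leaving out each mouse gave 1924 to 2971 and 3236 to 4138. The genotype counts depended on most choices. With vehicle (19 genes) leaving out each mouse gave 6 to 24, no filter on low counts 47, DESeq2 43, *Elane* at 40 or more UMIs 12, the hashtag ratio rule 4 and pools 1. With IL1β (41 genes) leaving out each mouse gave 15 to 69, no filter 112, DESeq2 103, *Xist* as a covariate 65, *Elane* at 40 or more UMIs 18, the ratio rule 12 and pools 3. The interaction (0 genes) gave 0 to 2 on leaving out each mouse, 6 with no filter and 5 with DESeq2. The cause of these shifts was not tested. Of the differences between sets of cells, those from monocyte-primed cells numbered 219 with no filter and 6 within WT mice, and those from immature myeloid cells 126 and 1. Within *Tet2*-KO mice 19 were larger and 33 smaller, and 2 larger and 23 smaller. No gene named by its rank changed direction under any alternative. Other genes named inside their list were not run under each alternative.

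By the correlation of their deviations, mice with the same number in different groups were not paired. This check took mice 1 and 2 as different numbers, so it cannot tell whether pools of mice 1 and 2 were alike across groups. Of 15 immediate-early genes, 9 were higher in mice 1 and 2 than in mice 3 and 4 in all 4 groups. Mice with other numbers in different groups correlated with r from -0.332 to 0.373, 25 of 72 over 0.1. Deviations of mice with the same number in different groups correlated with r from -0.463 to 0.191, 4 of 24 over 0.1, and 0 of 16 mice correlated best with their own number. With the mouse number as a replicate block the 5 counts were 2481, 3832, 15, 39 and 0, and with the pool number as a block 2783, 4093, 22, 69 and 0.

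None of the share differences passed under an alternative. With a mouse left out or under the hashtag ratio rule, a group held 3 mice and the smallest reachable p is 0.0571 or more. No difference could pass there. Under that rule, with mice of under 500 cells left out, the IL1β differences were 12.8 (WT) and 17.7 (*Tet2*-KO) percentage points. The genotype differences were 3.25 with vehicle and 8.15 with IL1β. With *Elane* at 40 or more UMIs the 4 differences were 3.46, 10.4, 5.00 and 12.0 percentage points, and with cells thinned before they were chosen 12.9, 20.4, 8.16 and 15.7, against 8.93, 12.2, 4.26 and 7.5. Leaving out each mouse gave 7.39 to 11.4 and 8.39 to 16.9 percentage points for IL1β in WT and *Tet2*-KO mice, and 0.398 to 6.96 and 3.72 to 12.2 for genotype with vehicle and with IL1β. Differences of stage shares that changed sign without thinning were those of *Cd34* between genotypes (2.49 with vehicle, 2.39 with IL1β), *Kit* between genotypes with vehicle (0.828), *Fcnb* with IL1β in WT mice (3.13, and 0.928 at 4000 UMIs), *Irf8* between genotypes with IL1β (4.40, and 0.711 at 4000 UMIs) and *Mki67* with IL1β in *Tet2*-KO mice (3.48, and 1.78 at 4000 UMIs). Leaving out each mouse moved the *Fcnb* difference from -2.27 to 0.892 and that of *Irf8* from -6.20 to 1.08. WT vehicle mouse 2 gave 154 members and 22 cells at 8000 UMIs, so its stage shares rest on the fewest cells of its group.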
